A study of Homo sapiens with 38 samples.

Results

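The miR-320 family and miR-484 were followed through small RNA sequencing of material released by DiFi cells, an established human colorectal cancer line. The members are hsa-miR-320a-3p, hsa-miR-320b, hsa-miR-320c, hsa-miR-320d, hsa-miR-320e and hsa-miR-484, taken by name from the miRNA rows of the deposited count table. All 6 were found, each on a row that names 1 miRNA, among 1559 miRNA rows and 22549 small RNA features.

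Most miRNAs are cut from a long primary transcript by the nuclear enzyme Drosha with its partner DGCR8, leave the nucleus through exportin-5 and are then cut by Dicer. The precursor of miR-320a is instead made directly by transcription, with a capped 5′ end that coincides with the start of the hairpin; in mouse cells it is carried out of the nucleus by exportin-1, and Dicer produces almost only the 3p strand. The precursor of miR-484 is likewise made from a transcription start without Drosha. For the paralogues miR-320b, miR-320c, miR-320d and miR-320e the route is not assumed here, and their place in the family rests on sequence.

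The series holds 11 groups of libraries, all made from medium conditioned by DiFi cells, for which the labels name no drug or genetic change. Supermeres, exomeres and small extracellular vesicles (sEV) were isolated by ultracentrifugation (UC) from 3D hollow-fibre bioreactor medium and from 2D plate medium, with 3 libraries a group. Exomeres are small particles without a membrane that pellet after the vesicles, and supermeres are smaller particles still, pelleted from the exomere supernatant; the protocol gives a wash for the UC sEV and exomere pellets and none for supermeres. Supermeres and exomeres were also isolated from 3D medium by fast protein liquid chromatography (FPLC), with 4 libraries each, and a cushion density gradient of 3D medium gave pooled fractions 12, 9_10 and 6_7, with 4 libraries each. The labels name small vesicles, heavy vesicles and non-vesicular material as the gradient's products without tying them to fraction numbers, so the pools are called by number. The 2D medium was serum-free and was concentrated on a membrane with a molecular-weight cutoff before UC, and the 3D medium was not, so culture and handling of the medium cannot be told apart. The labels speak of 3 pools of 2D medium and 4 of 3D medium without tying library letters to them. The p-values below therefore set a difference between groups against the scatter of these particular libraries, estimated over all 11 groups together. Part of that scatter may be technical.

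The mature sequences show which members can be told apart by reads, so they are given here 5′ to 3′ from RefSeq (GRCh38.p14), with the seed (bases 2 to 8) in capitals.
hsa-miR-320b: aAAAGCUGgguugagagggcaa
hsa-miR-320c: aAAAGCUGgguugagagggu
hsa-miR-320d: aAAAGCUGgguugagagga
hsa-miR-320e: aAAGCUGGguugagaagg
hsa-miR-484: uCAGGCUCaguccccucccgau
The members hsa-miR-320a-3p, miR-320b, miR-320c and miR-320d share the seed AAAGCUG. miR-320e begins 1 base further along the shared stretch, which gives it the seed AAGCUGG, and miR-484 has the unrelated seed CAGGCUC. From its first base miR-320a-3p is identical to miR-320b over 20 bases, to miR-320c over 19 and to miR-320d over 18, so a read that ends within the shared stretch cannot be assigned to 1 of them. Their counts are not whole numbers in 34 (miR-320a), 32 (miR-320b), 31 (miR-320c) and 36 (miR-320d) of 38 libraries, whereas all counts of miR-320e and miR-484 are whole. Values among miR-320a to miR-320d therefore depend in part on how the authors' counting divided shared reads.

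In GENCODE 29 (GRCh38) miR-320b has loci at chr1:116671787-116671808 (plus strand, MIR320B1 alone) and chr1:224257049-224257070 (minus strand, in an intron of NVL on the same strand). The hairpin of MIR320B1, chr1:116671746-116671817 on the plus strand, is shown with its mature strand in capitals to place that strand on the 3′ arm.
MIR320B1 hairpin: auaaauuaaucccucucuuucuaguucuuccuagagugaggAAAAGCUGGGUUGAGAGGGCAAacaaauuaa
miR-320c has loci at chr18:21683559-21683578 and chr18:24321716-24321735 (both plus strand), inside introns of ABHD3 and OSBPL1A on the opposite strand. miR-320d has loci at chr13:40727828-40727846 and chrX:140926172-140926190 (both minus strand), where only the miRNA genes are annotated. miR-320e lies at chr19:46709294-46709311 (minus strand) in an intron of PRKD2 on the same strand. miR-484 lies at chr16:15643301-15643322 (plus strand), in the UTR before the coding start of 1 transcript of NDE1 on the same strand.

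Depth differed widely between groups. Excluding 1 near-empty 3D UC supermere library with 46 counts, which was left out of means and tests, totals ran from 81079 counts (a gradient 9_10 library) to 16991360 counts (a 2D UC sEV library), so the 3D UC supermere group has 2 libraries. The share of all counts on miRNA rows was 37.5% to 61.9% in 2D UC supermeres, against 1.62% to 7.27% in 3D UC supermeres and 0.901% to 22.8% in FPLC supermeres. A single miRNA, hsa-miR-1246, took 97.5% ± 0.87 of the miRNA counts of gradient 12 (SD, n = 4) and between 5.71% and 67.3% of those of FPLC supermeres. Epithelial and intestinal miRNAs (miR-200c-3p, miR-141-3p, miR-192-5p, miR-194-5p and miR-215-5p) were detected in every group, all 5 of 5. They summed to 10.0% to 14.8% of miRNA counts in 2D UC sEV and 14.1% to 15.6% in 3D UC sEV. The sum was 7.31% to 22.1% in gradient 9_10, but 0.147% to 0.433% in FPLC supermeres and 0.0995% to 0.248% in gradient 12. The 7 blood cell, endothelial and liver miRNAs summed to at most 0.155% of miRNA counts in any library, with hsa-miR-451a at 306 counts over all 38 libraries.

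The members were most abundant in the supermeres and exomeres of 2D medium. Together they made up 30.8% ± 1.26 of all miRNA counts in 2D UC supermeres and 21.7% ± 3.88 in 2D UC exomeres, against 3.61% ± 0.780 in 2D UC sEV (SD, n = 3 each). In 3D medium they made up 13.8% ± 2.90 in UC supermeres (n = 2) and 14.2% ± 2.74 in UC exomeres, against 2.73% ± 1.28 in UC sEV (n = 3 each). FPLC supermeres held 12.2% ± 4.45 and FPLC exomeres 3.69% ± 1.44 (n = 4 each). In the gradient the summed share was 0.267% ± 0.0900 in pool 12, 0.302% ± 0.156 in pool 9_10 and 0.670% ± 0.168 in pool 6_7 (n = 4 each).

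miR-320a, whose capped precursor is described above, lies at chr8:22244975-22244996 on the minus strand (GRCh38), with no gene other than MIR320A annotated there. Its counts per 1000000 counts of the library (CPM) were 53366, 54561 and 37576 in the 2D UC supermere libraries and 50591, 42073 and 44070 in the 2D UC exomere libraries, against 7417, 9891 and 11909 in the 2D UC sEV libraries. Every supermere and exomere library of 2D medium lay above every sEV library. In 3D medium the values were 5735 and 1774 CPM in UC supermeres and 7192, 4142 and 6769 CPM in UC exomeres, against 3436, 5458 and 5454 CPM in UC sEV, and these 3 groups overlap. FPLC supermeres had 699, 3040, 2437 and 6254 CPM, against 4545, 8458, 3068 and 4146 CPM in FPLC exomeres, which also overlap. The gradient groups had the lowest means, with 907, 229, 581 and 798 CPM in pool 12, 556, 703, 1459 and 1354 CPM in pool 9_10, and 3043, 1324, 2855 and 3808 CPM in pool 6_7.

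In order of group means, miR-320a stood at 48501 ± 9480 CPM in 2D UC supermeres, 45578 ± 4454 in 2D UC exomeres, 9739 ± 2250 in 2D UC sEV, 6034 ± 1653 in 3D UC exomeres, 5054 ± 2354 in FPLC exomeres, 4783 ± 1166 in 3D UC sEV, 3755 ± 2801 in 3D UC supermeres, 3107 ± 2320 in FPLC supermeres, 2757 ± 1041 in gradient 6_7, 1018 ± 455 in gradient 9_10 and 629 ± 299 in gradient 12 (SD). Of these 10 neighbouring pairs of groups, 8 overlapped in their libraries. The exceptions were 2D UC exomeres against 2D UC sEV and 2D UC sEV against 3D UC exomeres. As a share of miRNA counts the order was different, because the miRNA part of the libraries differed, and 3D UC supermeres came first at 9.42% ± 2.17 (n = 2), followed by 2D UC supermeres at 9.18% ± 0.733 (n = 3). By that share miR-320a ranked between 2 and 4 among all miRNAs in every 2D UC supermere and exomere library, and at rank 12 to 16 in the 2D UC sEV libraries.

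miR-484, whose sequence is unrelated to the family, had 20386, 18174 and 9063 CPM in 2D UC supermeres and 16778, 19948 and 16523 CPM in 2D UC exomeres, against 1774, 2132 and 1898 CPM in 2D UC sEV. In 3D medium it had 397 and 235 CPM in UC supermeres and 3442, 2890 and 1989 CPM in UC exomeres, against 294, 549 and 509 CPM in UC sEV. The 3D UC exomere libraries thus lay above both other UC groups of that medium. FPLC supermeres had 93.5, 678, 325 and 207 CPM, against 220, 1429, 382 and 284 CPM in FPLC exomeres. Gradient means were 27.1 ± 16.2 CPM in pool 12, 79.3 ± 32.1 CPM in pool 9_10 and 87.8 ± 34.9 CPM in pool 6_7 (SD, n = 4 each).

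**Figure D1:**
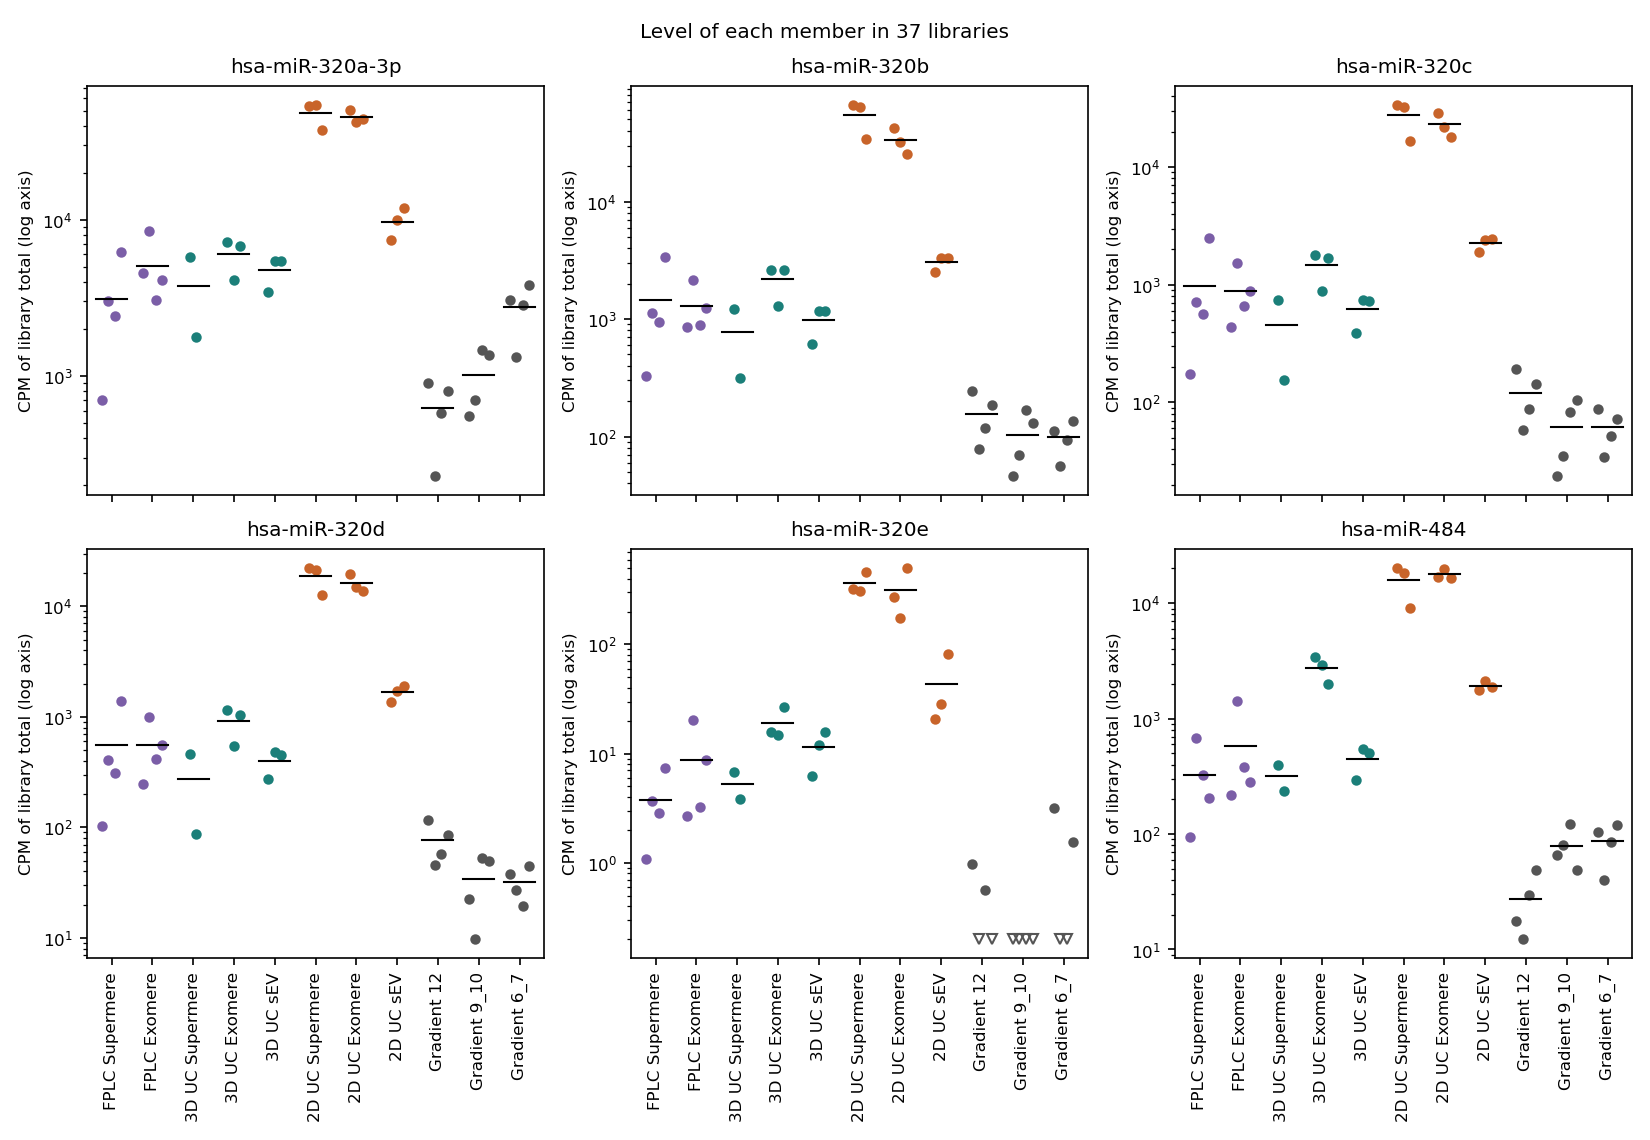
Level of each of the 6 members in the 37 libraries used, in CPM on log axes, with 1 point per library and a line at the group mean. Open triangles mark libraries with 0 counts of hsa-miR-320e, and no mean is drawn for groups that hold one. The 2D UC supermere and exomere libraries are the highest for every member, and the gradient pools have the lowest group means.

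miR-320b had the highest group mean of any member, in 2D UC supermeres. It had 66918, 63545 and 33864 CPM in 2D UC supermeres and 42586, 32344 and 25339 CPM in 2D UC exomeres, against 2524, 3301 and 3290 CPM in 2D UC sEV. In 2 of the 3 2D UC supermere libraries it was higher than miR-320a. Group means in the other media and methods were 1452 ± 1342 CPM in FPLC supermeres, 1290 ± 613 in FPLC exomeres, 770 ± 642 in 3D UC supermeres, 2174 ± 758 in 3D UC exomeres and 982 ± 316 in 3D UC sEV (SD, n = 4, 4, 2, 3 and 3). In the gradient it averaged 156 ± 72.4 CPM in pool 12, 104 ± 55.8 CPM in pool 9_10 and 99.0 ± 33.2 CPM in pool 6_7, groups that overlap.

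miR-320c and miR-320d followed miR-320b at lower levels. Group means of miR-320c ran from 61.2 CPM in gradient 9_10 to 27608 CPM in 2D UC supermeres, and those of miR-320d from 32.3 CPM in gradient 6_7 to 18884 CPM in 2D UC supermeres. miR-320e, the shortest member at 18 bases, was rare throughout, with group means of 362 ± 82.0 CPM in 2D UC supermeres and 317 ± 171 CPM in 2D UC exomeres, against 43.5 ± 32.9 CPM in 2D UC sEV (SD, n = 3 each). It had 2 counts over the 4 libraries of gradient 12, 0 counts over those of gradient 9_10, where 3 counts of the summed totals would be 3.45 CPM, and 9 counts over those of gradient 6_7. This limit covers counting error only.

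**Figure D2:**
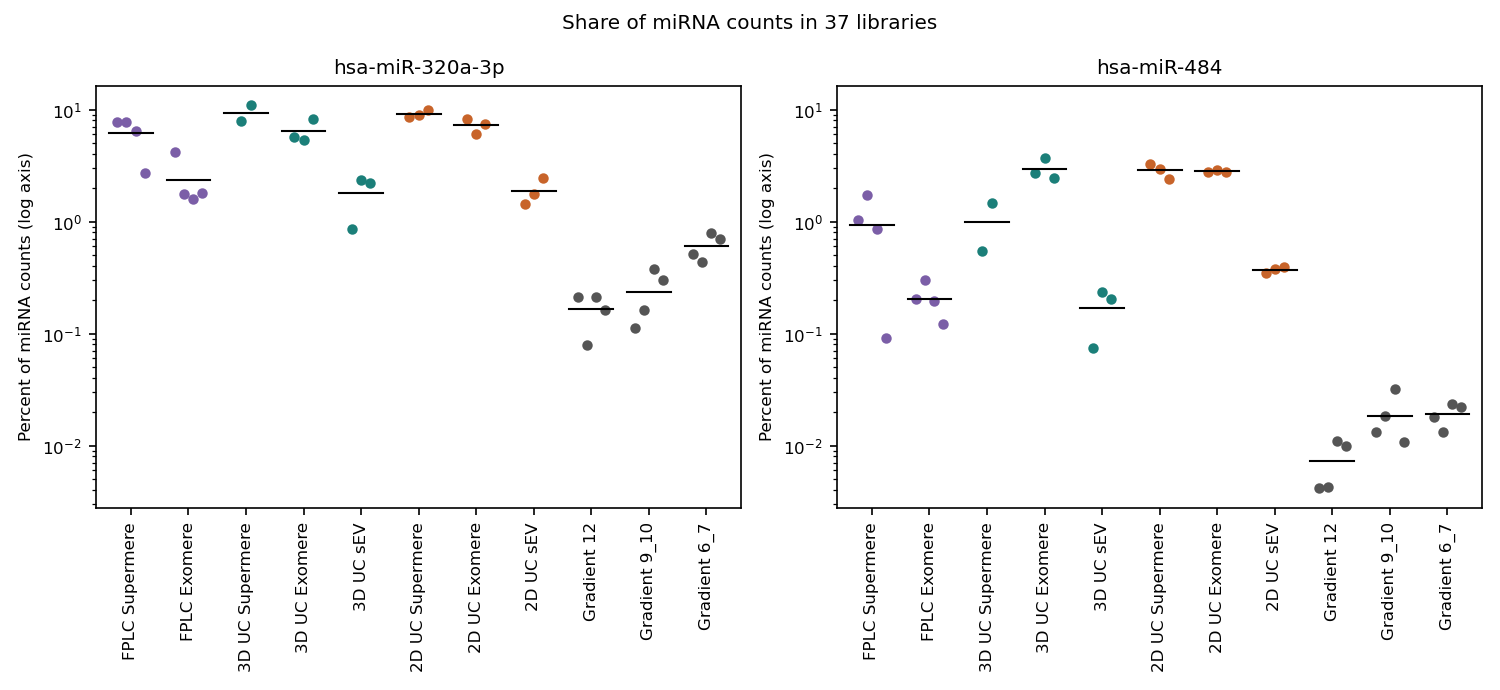
Share of miRNA counts taken by hsa-miR-320a-3p (left) and hsa-miR-484 (right) in the 37 libraries used, in percent on log axes, with 1 point per library and a line at the group mean. Among the UC libraries of each culture, every supermere and exomere library lies above every sEV library for both miRNAs.

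The libraries hold RNA released by a whole culture, so fewer particles that carry a miRNA, fewer copies per particle and fewer cells releasing it cannot be told apart. Each comparison was tested with edgeR's quasi-likelihood test on all 37 libraries, scaled by trimmed means of M-values (TMM), with Benjamini-Hochberg adjustment over 8979 features. A member passed at an adjusted p below 0.05, and fold changes are log2 with a standard error (SE). Shares of features printed beside counts are those of edgeR's test. Counts from DESeq2, at an unadjusted p, or of members without overlap between groups have no such share beside them. They therefore do not show whether the members differ from other features. All 6 members passed the filter on low counts. TMM factors ran from 0.0670 to 8.99, so each comparison is given under 2 further scalings: library totals, which match CPM, and miRNA rows alone scaled by miRNA totals, which match the share of miRNA counts (485 rows).

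In 2D medium, supermeres held more of 4 family members than sEV did. miR-320b rose by a log2 fold change of 3.46 (SE 0.85, adjusted p = 0.00106), miR-320c by 2.89 (SE 0.84, adjusted p = 0.0104), miR-320d by 2.86 (SE 0.86, adjusted p = 0.0132) and miR-320e by 3.00 (SE 1.04, adjusted p = 0.0492). miR-484 at 2.26 (SE 0.83, adjusted p = 0.0781) and miR-320a at 1.78 (SE 0.77, adjusted p = 0.184) did not pass, although their CPM ranges do not overlap between the groups. At an unadjusted p under 0.05 there were 6 members, and DESeq2 called all 6 as higher. The 4 members that rose compare with 1.39% of all features tested, and the members' median of 2.87 with a median of 0 over all features. Scaled by library totals, 5 members rose (all but miR-320e; 1.4% of features), and scaled by miRNA totals all 6 rose (13.4% of miRNA rows), with miR-320a at 2.28 (SE 0.46) and miR-484 at 2.96 (SE 0.56). Under TMM the count was 6 without supermere library B, 1 without supermere library C, 1 without sEV library A, 2 without sEV library B and 1 without sEV library C.

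Exomeres of 2D medium stood between supermeres and sEV under TMM. Their log2 fold changes over sEV were all positive, from 0.78 (SE 0.76) for miR-320a to 1.89 (SE 0.79) for miR-320b, but none of the 6 passed in edgeR's test, in which 6.45% of features did in either direction. At an unadjusted p under 0.05 there were 4 members, and DESeq2 called all 6 as higher. Scaled by library totals 5 members rose (1.12% of features), with miR-320a at 2.23 (SE 0.70, adjusted p = 0.0381) and miR-484 at 3.20 (SE 0.78, adjusted p = 0.00213), and scaled by miRNA totals all 6 rose (10.7% of miRNA rows). By group means the CPM of miR-320a was 4.68 times and that of miR-484 9.17 times as high in exomeres as in sEV. For all 6 members the libraries of the groups do not overlap. The share of all features without overlap is not given here, so this does not set the members apart.

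Between supermeres and exomeres of 2D medium no member passed (0.0557% of features did in either direction in edgeR's test), with log2 fold changes of supermeres over exomeres from 0.53 (SE 0.80) for miR-484 to 1.57 (SE 0.79) for miR-320b, 1 member at an unadjusted p under 0.05 and 3 members higher in DESeq2. None passed under library totals (0.123%) or miRNA totals (8.87%) either. By share of miRNA counts the libraries of miR-320b do not overlap, at 10.8%, 10.4% and 9.02% in supermeres against 7.01%, 4.68% and 4.27% in exomeres.

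In 3D medium exomeres held more miR-484 than sEV. It rose by 2.79 (SE 0.85, adjusted p = 0.0199), 1 of 6 members, against 0.156% of all features higher and a median of -0.16 over all features. The other 5 had positive log2 fold changes from 0.40 (SE 0.75) for miR-320a to 1.29 (SE 0.80) for miR-320c that did not pass, although the CPM ranges of miR-320b, miR-320c and miR-320d do not overlap between the groups and DESeq2 called all 6 members as higher. Scaled by library totals miR-484 was again the member that rose (2.62, SE 0.77; 0.111% of features). Scaled by miRNA totals all 6 rose (13.6% of miRNA rows), miR-484 by 4.11 (SE 0.59) and miR-320a by 1.84 (SE 0.45). The call of miR-484 under TMM was lost without exomere library A or B, or without any 1 of the sEV libraries A, B and C.

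For supermeres over sEV in 3D medium the answer turned on the scaling. Under TMM the log2 fold changes lay between -0.72 (SE 1.13) for miR-320e and -0.12 (SE 0.89) for miR-484, none passed in edgeR's test or at an unadjusted p under 0.05, and the median over all features was -3.22 (5.17% passed in either direction). DESeq2 called all 6 as higher. Under library totals none passed (4.03%). Under miRNA totals 5 rose (7.42% of miRNA rows), from 1.97 (SE 0.46) for miR-320d to 2.55 (SE 0.58) for miR-484, and miR-320e at 1.89 (SE 0.85, adjusted p = 0.0956) did not pass. The share of miRNA counts of miR-320a was 7.89% and 10.96% in the supermere libraries, against 0.862%, 2.33% and 2.19% in the sEV libraries. Between 3D supermeres and exomeres none passed under TMM (0.245%), library totals (0.29%) or miRNA totals (6.39%), with 1 member, miR-484 at -2.91 (SE 1.01), at an unadjusted p under 0.05 and none in DESeq2.

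**Figure D3:**
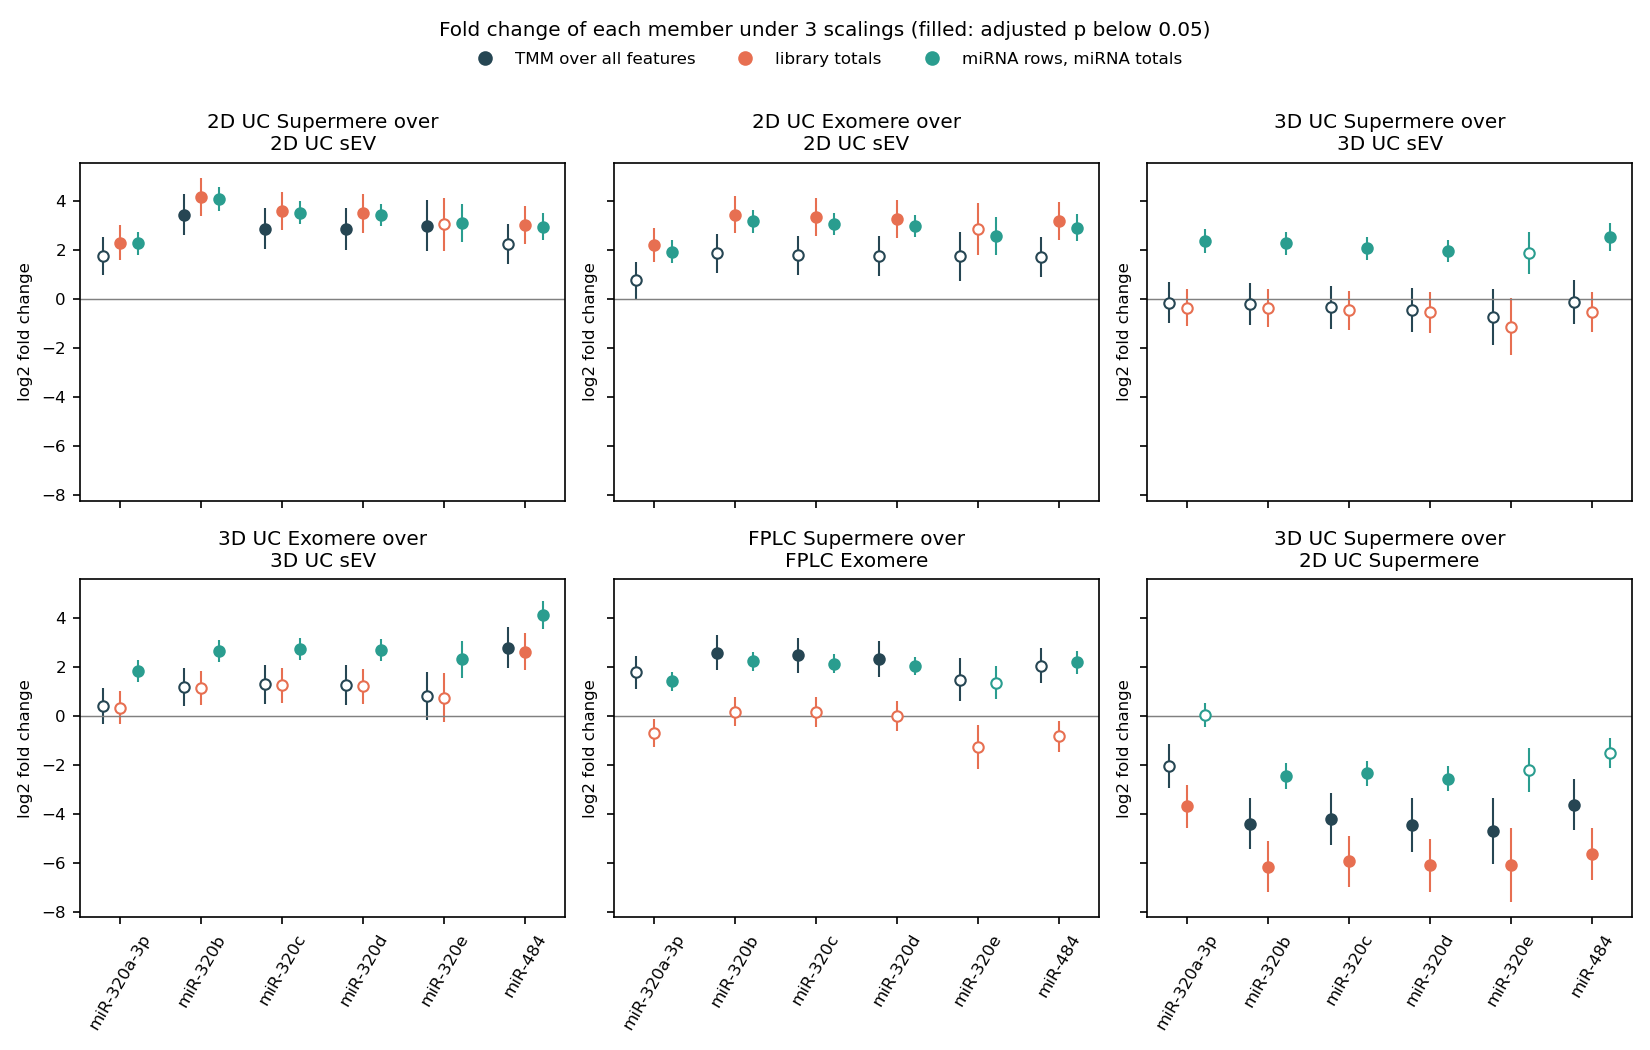
Log2 fold change of each member (points, with bars of 1 SE) in 6 comparisons under 3 scalings, from edgeR's quasi-likelihood test. Filled points have an adjusted p below 0.05. The 3 scalings differ most for 3D UC supermeres over 3D UC sEV, where only miRNA totals give positive values, and for FPLC supermeres over FPLC exomeres, where only library totals give none that pass.

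Supermeres of 3D medium held less of 5 members than those of 2D medium. The CPM of all 6 was lower with no overlap between libraries, but the share of all features without overlap is not given here. miR-320b fell by 4.40 on the log2 scale (SE 1.06, adjusted p = 0.00285), with miR-320c at -4.21, miR-320d at -4.47, miR-320e at -4.69 and miR-484 at -3.62 (SE 1.05, adjusted p = 0.0308). miR-320a, at -2.05 (SE 0.91, adjusted p = 0.277), did not pass. These 5 lower members compare with 0.579% of features lower, but the median of all features was -4.39, close to the members' median of -4.30. Under library totals all 6 fell (7.47% of features). Under miRNA totals miR-320b (-2.47, SE 0.52), miR-320c and miR-320d fell (5.77% of miRNA rows), while miR-320a was at 0.04 (SE 0.49). With the groups compared fitted alone no member passed. The count under TMM was 0 without 3D supermere library B or C, each of which leaves 1 library in that group, assumed to vary like the others, and 3 without 2D supermere library C.

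For exomeres of 3D over 2D medium no member passed under TMM (5.38% of features did in either direction in edgeR's test), with 1 member, miR-320d at -1.70 (SE 0.82), at an unadjusted p under 0.05 and all 6 lower in DESeq2. Under library totals all 6 fell, as did 48.6% of features. Under miRNA totals miR-320b (-1.20, SE 0.43), miR-320c and miR-320d fell (12.8% of miRNA rows), whereas miR-484 stood at 0.07 (SE 0.52) and miR-320a at -0.18 (SE 0.44). For sEV of 3D over 2D medium no member passed under TMM (1.96%), library totals (0.813%) or miRNA totals (9.07%), none had an unadjusted p under 0.05 under TMM, and DESeq2 called all 6 as lower.

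Whether the step between fractions differed by culture was tested as a difference of fold changes. For supermeres over sEV, in 3D minus 2D, no member passed under TMM (1.14% of features did in either direction), with values from -1.91 (SE 1.15) for miR-320a to -3.72 (SE 1.55) for miR-320e and 4 members at an unadjusted p under 0.05. Under library totals miR-320b (-4.52, SE 1.10), miR-320c and miR-320d fell (0.991% of features), and under miRNA totals none passed (7.84%). For exomeres over sEV none passed under TMM (1.12%), library totals (0.846%) or miRNA totals (13%), and none had an unadjusted p under 0.05 under TMM. DESeq2 was not run for these differences.

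With FPLC in place of UC, supermeres held more of 3 family members than exomeres under TMM. miR-320b rose by 2.58 (SE 0.71, adjusted p = 0.00851), miR-320c by 2.46 (SE 0.72, adjusted p = 0.0162) and miR-320d by 2.31 (SE 0.73, adjusted p = 0.0300), 3 of 6 members against 1.51% of features. miR-484 at 2.04 (SE 0.72, adjusted p = 0.0625), miR-320a at 1.78 (SE 0.67, adjusted p = 0.0930) and miR-320e at 1.47 (SE 0.87) did not pass. Under library totals none passed, where 48.2% of features did in either direction and the median of all features was -3.77: miR-320b was at 0.17 (SE 0.59) and miR-320a at -0.70 (SE 0.58). Under miRNA totals 5 rose (16.3% of miRNA rows), all but miR-320e. The count under TMM was 1 without exomere library A or D, 2 without exomere library C, 4 without exomere library B, and 2 without supermere library B or D. FPLC supermere library D had 22.8% of its counts on miRNA rows. Its share of miRNA counts for the members was the lowest, 6.02% against 12.0% to 15.5% in the other 3 libraries. These shares are set against totals of which hsa-miR-1246 took 5.71% to 67.3%. Over the other miRNA counts, a base chosen after the values were seen, miR-320a was 7.86% to 8.48% across the 4 libraries. On that base miR-320b was 3.05% to 4.56% and miR-484 0.278% to 1.89%.

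FPLC exomeres held less miR-484 than UC exomeres from the same kind of medium. It fell by 3.59 on the log2 scale (SE 0.79, adjusted p = 0.000754), the member that passed of 6, against 1.92% of features lower, and it also fell under library totals (-2.26, SE 0.68; 0.691% of features). Its share of miRNA counts was 0.204%, 0.299%, 0.196% and 0.122% in FPLC exomeres, against 2.71%, 3.72% and 2.45% in 3D UC exomeres. Under miRNA totals all 6 members fell (15.1% of miRNA rows) with miR-484 at -3.85 and miR-320a at -1.46. The epithelial and intestinal miRNAs moved the other way: 3 of 5 rose in FPLC exomeres under TMM, against 3.75% of features and 9.71% of miRNA rows, and their summed share was 7.14% to 14.4%, against 1.32% to 1.96% in 3D UC exomeres. Their part in the result was not tested. Between FPLC and 3D UC supermeres no member passed under TMM (0.212%), library totals (0.468%) or miRNA totals (2.06%), with 3 members higher at an unadjusted p under 0.05 under TMM and 3 higher in DESeq2.

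In the density gradient, too, calls and some directions depended on the scaling. Pool 9_10 over pool 6_7 gave 5 lower members under TMM, from -2.42 (SE 0.75) for miR-320c to -3.91 (SE 0.73, adjusted p = 5.86e-05) for miR-320a, against 4.4% of features lower and a median of 2.71 over all features. Under library totals miR-320a fell (-1.44, SE 0.59, adjusted p = 0.0386; 0.134% of features) and miR-320b stood at 0.06 (SE 0.61), and under miRNA totals none passed (0.412%). The count under TMM was 1 without pool 9_10 library A or B and 2 without pool 6_7 library D. The 4 libraries of pool 9_10 are the shallowest, with 100.9 to 349.9 counts over all members.

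Pool 12 over pool 9_10 gave 4 higher members under TMM (2.47% of features): miR-320a by 2.41 (SE 0.69), miR-320b by 3.72 (SE 0.76), miR-320c by 4.01 (SE 0.79) and miR-320d by 4.35 (SE 0.83). Without pool 12 library A or D the count was 3. Under library totals none passed, where 44.1% of features did in either direction, and miR-320a was at -0.69 (SE 0.58). Under miRNA totals miR-320c and miR-320d rose (1.24% of miRNA rows) and miR-484 fell (-1.21, SE 0.52, adjusted p = 0.0389; 59.2% of miRNA rows).

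For pool 12 over pool 6_7 the members differed in direction under these 3 scalings. Under TMM none passed in edgeR's test (7.35% did in either direction), with 3 at an unadjusted p under 0.05, miR-320c (1.59, SE 0.70) and miR-320d (1.75, SE 0.72) above 0 and miR-320a (-1.50, SE 0.66) below, and 3 higher in DESeq2. Under library totals miR-320a fell (-2.13, SE 0.60, adjusted p = 0.00882; 5.39% of features). Under miRNA totals miR-320b, miR-320c and miR-320d rose (2.27% of miRNA rows) while miR-320a and miR-484 fell (67% of miRNA rows). On miRNA rows scaled by TMM both turned positive, with miR-320a at 2.80 and miR-484 at 3.34, and on miRNA totals without hsa-miR-1246 they were at 3.28 and 3.86.

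The share of miRNA counts in pool 12 is set against a total that is nearly all hsa-miR-1246, so shares were also taken over the other miRNA counts, a choice made after the values were seen. On that base miR-320a was 6.50% ± 1.01 in pool 12, 0.277% ± 0.0999 in pool 9_10 and 0.668% ± 0.133 in pool 6_7 (SD, n = 4 each). The 4 values in pool 12, from 5.53% to 7.89%, lay above every library of both other pools. Group means elsewhere were 8.24% ± 0.274 in FPLC supermeres, 13.3% ± 1.82 in 3D UC supermeres, 7.11% ± 2.01 in 3D UC exomeres, 9.93% ± 1.04 in 2D UC supermeres and 7.85% ± 1.32 in 2D UC exomeres. The sEV values were 1.86% ± 0.785 in 3D and 1.90% ± 0.533 in 2D, and FPLC exomeres had 2.91% ± 1.09. On the same base miR-484 was 0.305% ± 0.134 in pool 12, 0.0226% ± 0.00922 in pool 9_10 and 0.0210% ± 0.00345 in pool 6_7. It was 0.375% ± 0.0263 in 2D UC sEV and 3.12% ± 0.414 in 2D UC supermeres.

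The make-up of the miR-320 family also differed between groups. As a percentage of the summed counts of miR-320a to miR-320e, miR-320a was 33.0% ± 3.64 in 2D UC supermeres and 38.9% ± 3.98 in 2D UC exomeres, against 57.9% ± 2.34 in 2D UC sEV (SD, n = 3 each), and neither range reaches that of sEV. miR-320b took 36.1% ± 2.32 and 28.0% ± 2.69 of the family in those supermeres and exomeres, against 18.3% ± 1.35 in sEV. In 3D medium miR-320a was 73.0% ± 4.06 in UC supermeres (n = 2) and 57.4% ± 2.42 in UC exomeres, against 70.7% ± 1.82 in UC sEV (n = 3 each), so exomeres lay below sEV and supermeres did not. FPLC supermeres had 53.6% ± 5.17 and FPLC exomeres 65.1% ± 6.63 (n = 4 each). In the gradient the value was 63.1% ± 5.58 in pool 12 (n = 4), 83.7% ± 1.75 in pool 9_10 (n = 3, leaving out 1 library under 100 family counts) and 93.2% ± 1.20 in pool 6_7 (n = 4), and no library of 1 pool reaches the range of another.

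**Figure D4:**
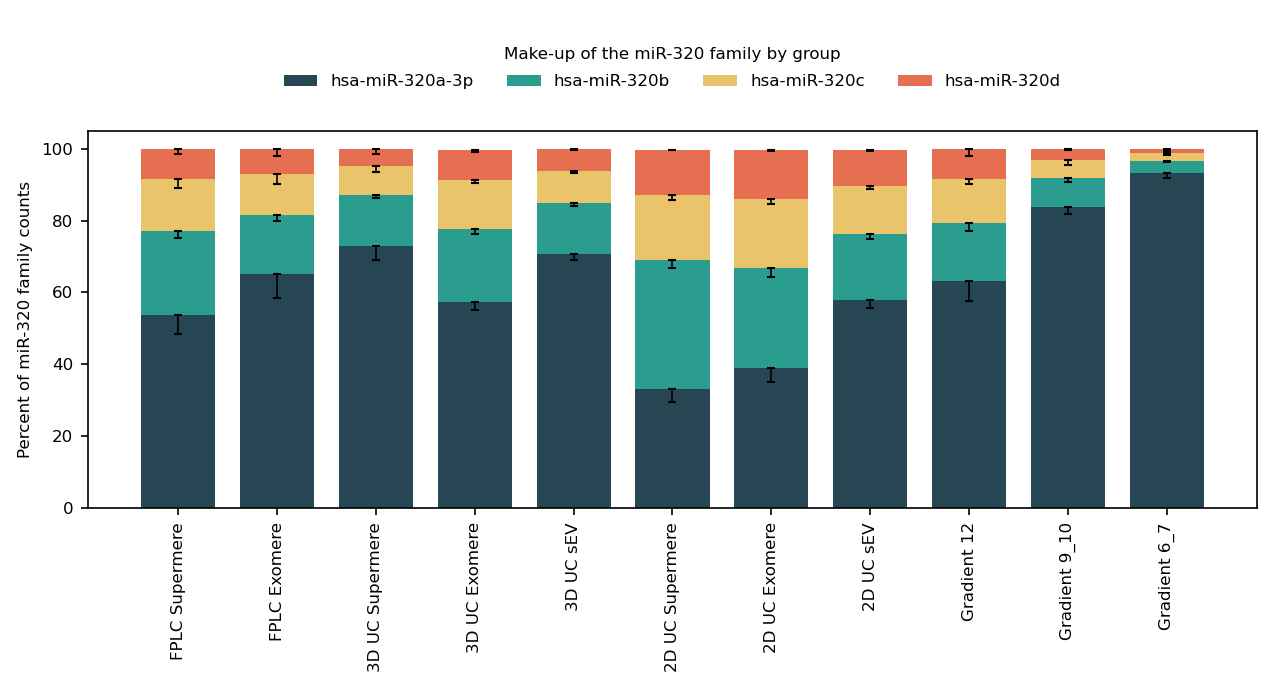
Mean percentage of miR-320 family counts taken by hsa-miR-320a-3p, miR-320b, miR-320c and miR-320d in each group, stacked from 0, with downward bars of 1 SD for each part over 2 to 4 libraries. miR-320e is left out because it is at most 0.282% of the family in any group mean. The share of miR-320a is 33.0% in 2D UC supermeres and 93.2% in gradient 6_7.

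The ratio of miR-320b to miR-320a counts compares both within a library, free of any scaling between libraries, though not of how shared reads were divided. It was 1.25, 1.16 and 0.901 in 2D UC supermeres and 0.842, 0.769 and 0.575 in 2D UC exomeres, against 0.340, 0.334 and 0.276 in 2D UC sEV. In 3D medium it was 0.213 and 0.178 in UC supermeres and 0.362, 0.314 and 0.387 in UC exomeres, against 0.179, 0.214 and 0.213 in UC sEV. It averaged 0.444 ± 0.0788 in FPLC supermeres and 0.259 ± 0.0511 in FPLC exomeres, and 0.261 ± 0.0588 in gradient 12, 0.0985 ± 0.0136 in gradient 9_10 and 0.0368 ± 0.00421 in gradient 6_7 (SD, n = 4 each). Group means of this ratio ran from 0.0368 to 1.11, while those of miR-320c to miR-320b ran from 0.502 to 0.764 and those of miR-320d to miR-320b from 0.329 to 0.547. The paralogues thus spanned a narrower range of ratios to each other than to miR-320a. The ratio of miR-484 to miR-320a, which share no reads, was highest in 3D UC exomeres at 0.490 ± 0.202 and lowest in gradient 6_7 at 0.0316 ± 0.00210.

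**Figure D5:**
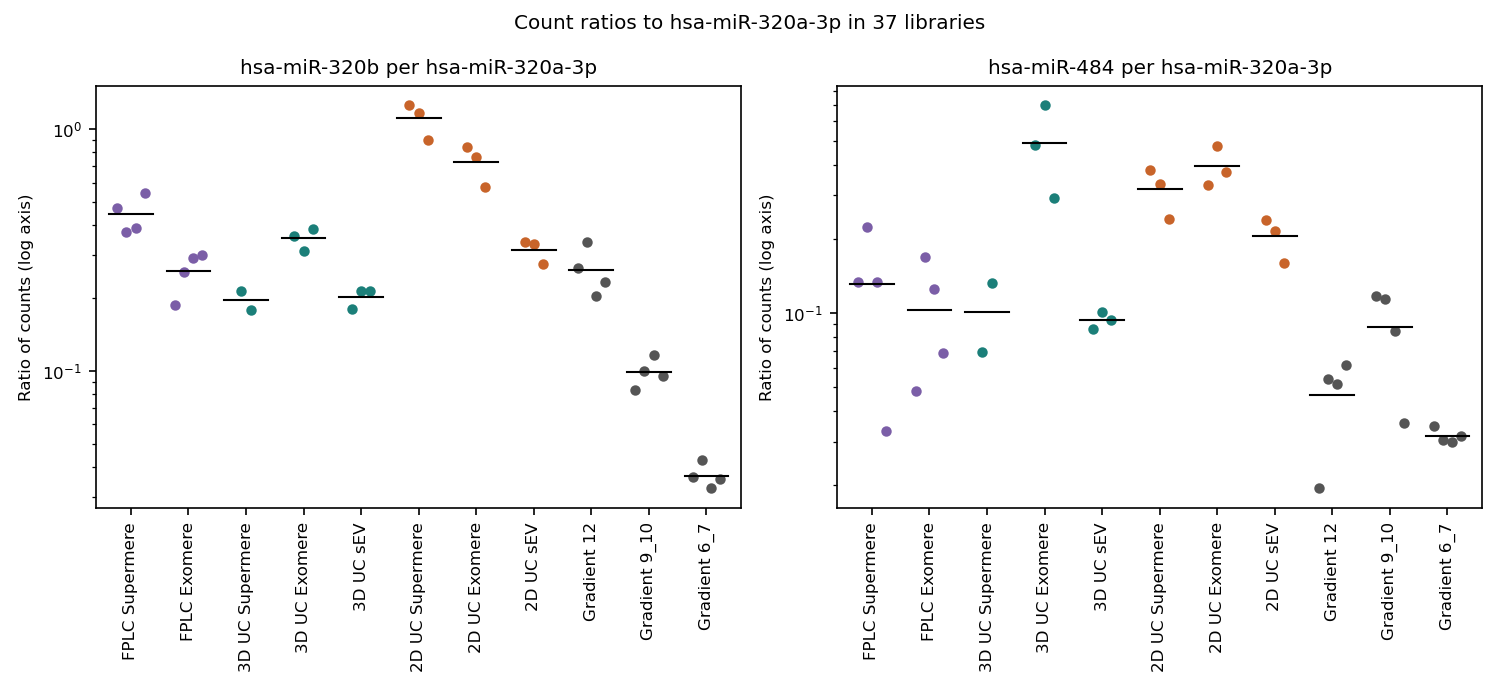
Ratio of counts of hsa-miR-320b (left) and hsa-miR-484 (right) to those of hsa-miR-320a-3p in the 37 libraries used, on log axes, with 1 point per library and a line at the group mean. The 2D UC supermere libraries have the highest miR-320b ratios, and the 4 gradient 6_7 libraries the lowest, between 0.0326 and 0.0426.

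The other miRNAs listed as of non-canonical origin were a passenger strand, mirtrons and miRNAs derived from small nucleolar RNAs, and these were scarce. The list does not cover every such miRNA, and hsa-miR-1246 was not on it. The passenger strand hsa-miR-320a-5p had 7 counts over all 38 libraries, all in gradient 6_7, against 2905080 counts of hsa-miR-320a-3p. Mirtrons, whose hairpins are introns released by splicing, had 17 of 20 listed strands in the table and summed to between 0 and 56.3 CPM in a library, with hsa-miR-877-5p the most counted at 2653 counts in all. The 5 miRNAs derived from small nucleolar RNAs summed to at most 73.8 CPM. None of these reached a group mean of 50 CPM. In 2D UC supermeres over sEV, 1 of 5 tested mirtrons and 1 of 4 tested snoRNA-derived miRNAs fell and none rose. Of all features 6.43% fell and 1.39% rose, and of miRNA rows 31% fell and 3.12% rose. The medians of the lists were -1.06 and -2.67 beside -2.46 over miRNA rows. The other comparisons of these lists are not given here.

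Many miRNAs were lower in supermeres and exomeres than in sEV under TMM, the epithelial and intestinal ones among them. Of 5, 4 fell in 2D UC supermeres over 2D UC sEV, where 6.43% of features and 31% of miRNA rows fell, with a median of -5.65 beside -2.46 over miRNA rows and 2.87 over the members. In 2D UC exomeres over 2D UC sEV 4 fell (5.99% of features, 28.4% of miRNA rows), with a median of -4.48 beside -2.06 over miRNA rows and 1.76 over the members. All 5 fell in 3D UC supermeres over 3D UC sEV (4.83% of features, 23.4% of miRNA rows), with a median of -6.84 beside -4.93 over miRNA rows and -0.25 over the members. All 5 also fell in 3D UC exomeres over 3D UC sEV (6.74% and 32.1%), with a median of -4.57 beside -3.02 and 1.22. In FPLC supermeres over FPLC exomeres all 5 fell (4.59% and 17.9%), with a median of -4.85 beside -0.80 and 2.18. Their summed share was 0.497% to 0.878% of miRNA counts in 2D UC supermeres, against 10.0% to 14.8% in 2D UC sEV.

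Likeness to miR-320a was measured as Pearson's r of group means of log2(CPM + 1) over the 11 groups. It was ranked among the 211 tested miRNA rows that reached 50 CPM in 1 or more group means. Within a group all miRNAs share library totals and medium, and these differ among the 11 groups. By CPM, miR-320e had rank 1 (0.974), miR-484 rank 3 (0.966), miR-320b rank 10 (0.945), miR-320c rank 12 and miR-320d rank 13. The order changed when counts were scaled by miRNA totals in place of library totals. miR-484 then had rank 5 (0.960), miR-320e rank 8 (0.951), miR-320b rank 10 (0.945), miR-320c rank 14 and miR-320d rank 19. By CPM the 5 most alike of the other miRNAs were hsa-miR-335-5p (0.972), hsa-miR-629-5p (0.966), hsa-miR-671-5p (0.958), hsa-miR-423-5p (0.957) and hsa-miR-193b-5p (0.955). Scaled by miRNA totals, hsa-miR-671-5p, hsa-miR-335-5p and hsa-miR-423-5p stayed among the 5 most alike of the others, and hsa-miR-629-5p and hsa-miR-193b-5p did not. For miR-484 the members had, by CPM, ranks 1 (miR-320e), 3 (miR-320a), 4 (miR-320b), 6 (miR-320c) and 8 (miR-320d). Scaled by miRNA totals, they had ranks 1 (miR-320e), 3 (miR-320b), 4 (miR-320a), 5 (miR-320c) and 7 (miR-320d). By CPM the 5 most alike of the others were hsa-miR-335-5p (0.970), hsa-miR-629-5p (0.960), hsa-miR-671-5p (0.957), hsa-miR-1307-5p (0.945) and hsa-miR-10a-3p (0.943). Of these, hsa-miR-629-5p and hsa-miR-10a-3p stayed among the 5 most alike when scaled by miRNA totals. The named hsa-miR-335-5p, hsa-miR-671-5p and hsa-miR-1307-5p did not.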

How the data were processed

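Small RNA libraries of 38 samples (AlkB-treated RNA, per the labels' protocols) were analysed from 1 table of expected counts per feature, deposited by the authors; 6.71% of its values are not whole (tolerance 1e-06). Per the submitters' processing notes, cutadapt 4.5, FastQC 0.12.1, Bowtie 1.3.1 and GRCh38.p13 were used; the counting tool and annotation are not given in the sources used here. Groups were taken from the sample titles. Levels are CPM and percent of miRNA counts as deposited. For tests the expected counts were rounded, 1 library under 10000 counts was left out, filterByExpr (minimum count 10) kept 8979 features (577 miRNA rows), and edgeR 4.0.16 (R 4.3.3; robust quasi-likelihood, TMM) was fitted to 11 group means of 37 libraries (residual df 26; common biological coefficient of variation 1.197), with Benjamini-Hochberg adjustment. Tables were made with Python 3.11.15 and pandas 2.3.3.

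Alternatives were library totals, RLE scaling, miRNA rows alone, other filters, DESeq2 1.42.0, the near-empty library kept, the groups compared alone, a replicate block and leaving out each library. On simulated counts for 2D UC supermeres over sEV (5117 features), the edgeR step called 100% of 16-fold and 41% of 4-fold changes. The simulated libraries scattered less than the real ones, and apart from the changed features all groups had the same profile. These rates therefore show that the step runs as intended and do not give its power on the real libraries.

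Genes were named by a rule: every member, and listed non-canonical miRNAs with a group mean of at least 50 CPM. The rule also took the 5 rows most like miR-320a and miR-484, ranked by CPM. Others named in the text (hsa-miR-1246, hsa-miR-451a, hsa-miR-877-5p and hsa-miR-320a-5p) were singled out after their values were seen or as list members. Members and lists were chosen with earlier results of these data known. Library letters agreed between groups (correlation of deviations above 0.1 in every pair: 0.122, 0.109 and 0.413) for 2D UC supermeres against exomeres, where the paired fit also called 0 members.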

Additional observations from a re-analysis of the deposited data

Results flagged for a closer look

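In 2 of 60 sets of libraries tested, 1 library stood apart from the others of its group by Dixon's test at the 95% level; about 1 in 20 would do so by chance. hsa-miR-320a-3p took 4.22% of miRNA counts in FPLC exomere library A, against 1.58% to 1.78% in the other 3 libraries. The totals behind these shares held 1.92% to 42.7% hsa-miR-1246. Over the miRNA counts without it, hsa-miR-320a-3p was 1.81% to 4.33% in FPLC exomeres, with a mean of 2.91% ± 1.09 (SD, n = 4). hsa-miR-484 reached 1429 CPM in FPLC exomere library B, against 220 to 382 CPM in the other 3 libraries.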

How the results depend on the processing

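Counts are of members that passed, all in the direction given unless both are named. Shares of all features are not printed beside them, so a count alone does not set the members apart. Under library totals, for example, 48.6% of features were lower for 3D over 2D exomeres and 1.12% higher for 2D exomeres over sEV. For 2D exomeres over sEV, where 0 passed in the report's test, 6 were higher with DESeq2, RLE scaling, miRNA rows under TMM, miRNA rows under miRNA totals and miRNA rows without hsa-miR-1246, 5 with library totals and 4 with the groups compared alone. For 2D supermeres over exomeres 3 were higher with DESeq2 and 1 with miRNA rows under TMM. For 3D over 2D exomeres the lower members were 6 with DESeq2 or library totals, 5 with RLE or miRNA TMM, and 3 with miRNA totals, without hsa-miR-1246 or with the groups alone. For 3D exomeres over sEV, 6 were higher with DESeq2, miRNA TMM, miRNA totals, without hsa-miR-1246 or the groups alone, 5 with RLE and 0 with no filter. For 3D supermeres over sEV, 6 were higher with DESeq2, miRNA TMM or without hsa-miR-1246, and 5 with RLE or miRNA totals. For 3D over 2D sEV the lower members were 6 with DESeq2, 4 with RLE, 3 with miRNA TMM, 2 with the groups alone and 1 without hsa-miR-1246. For 3D over 2D supermeres 3 were lower with miRNA totals or without hsa-miR-1246, and 0 with the groups alone. The replicate block was set within each culture, so its fit cannot compare 3D with 2D medium and gives no count here. For 3D supermeres over exomeres 3 were lower with miRNA TMM. For FPLC over 3D UC exomeres the lower members were 6 with DESeq2, miRNA TMM, miRNA totals, without hsa-miR-1246 or the groups alone, 5 with a minimum count of 50 and 4 with RLE. For FPLC over 3D UC supermeres 3 were higher with DESeq2 or miRNA TMM. For FPLC supermeres over exomeres the higher members were 6 with DESeq2, miRNA TMM or the groups alone, 5 with RLE, miRNA totals, without hsa-miR-1246 or a minimum count of 50, and 0 with library totals. For gradient 12 over 6_7, 5 were higher with miRNA TMM or without hsa-miR-1246, 3 with DESeq2, RLE, no filter or the groups alone and 2 with a minimum count of 50, 1 was lower with library totals, and 5 passed with miRNA totals (3 higher and 2 lower). For gradient 12 over 9_10, 0 passed with library totals. For gradient 9_10 over 6_7, 1 was lower with DESeq2, RLE, library totals, miRNA TMM, no filter, the groups alone or without hsa-miR-1246, and 0 with miRNA totals. The culture difference had 3 lower with library totals and 6 with miRNA TMM for supermeres, and 1 lower with miRNA TMM for exomeres; it was not run with DESeq2 or the groups alone. Keeping the near-empty library moved none of 17 counts past 1.5 times. The replicate block moved 1 of 17 past that, the count for 3D over 2D supermeres. Counts between cultures are among the 17, and the block cannot judge these. The cause of these changes was not tested.

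Among values called on 1 side or the other, signs turned in 5 comparisons. For 3D supermeres over sEV the log2 fold changes became, with RLE, miRNA TMM, miRNA totals, without hsa-miR-1246 and with DESeq2 in that order, 2.47, 2.56, 2.39, 2.83 and 2.47 for hsa-miR-320a-3p; 2.40, 2.45, 2.28, 2.74 and 2.40 for hsa-miR-320b; 2.20, 2.25, 2.09, 2.55 and 2.20 for hsa-miR-320c; 2.07, 2.13, 1.97, 2.43 and 2.07 for hsa-miR-320d; and 2.65, 2.73, 2.55, 2.96 and 2.64 for hsa-miR-484. For hsa-miR-320e they were 2.07 with miRNA TMM, 2.32 without hsa-miR-1246 and 2.00 with DESeq2. For gradient 12 over 6_7, miRNA TMM and leaving out hsa-miR-1246 gave 2.80 and 3.28 for hsa-miR-320a-3p and 3.34 and 3.86 for hsa-miR-484. For gradient 12 over 9_10, hsa-miR-320a-3p was -0.69 with library totals and -0.50 with miRNA totals, and hsa-miR-484 was -1.21 with miRNA totals. For gradient 9_10 over 6_7, hsa-miR-320b was 0.0596 with library totals, 0.0674 with miRNA totals and 0.16 without hsa-miR-1246; hsa-miR-320c was 0.0019 with miRNA totals and 0.11 without hsa-miR-1246; without it hsa-miR-320d was 0.12 and hsa-miR-484 0.0605. For FPLC supermeres over exomeres hsa-miR-320d was -0.0129 with library totals.

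Leaving out 1 library at a time gave 1 to 6 members for 2D supermeres over sEV, 0 to 1 for 3D exomeres over sEV, 0 to 5 for 3D over 2D supermeres, 1 to 4 for FPLC supermeres over exomeres, 3 to 4 for gradient 12 over 9_10 and 1 to 5 for gradient 9_10 over 6_7. Leaving out hsa-miR-1246 was chosen after seeing the data. Depth limits the gradient 9_10 libraries most.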
